A study of Mus musculus with 12 samples.

Results

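The Toll-like receptors of RAW 264.7 macrophages were described through 10 genes taken by name: the surface receptors Tlr1, Tlr2, Tlr4 and Tlr6, the endosomal receptors Tlr3, Tlr7, Tlr8, Tlr9 and Tlr13, and Unc93b1, the protein that carries endosomal receptors to their compartment. They are 10 of the 35944 genes to which the listed transcripts could be matched, and 9 of them were among the 13923 genes with enough counts to test, the exception being Tlr8. RAW 264.7 is a mouse macrophage line transformed by a leukaemia virus, and every library comes from this single line. The cells received, for 48 h and at 3 µg of vesicle protein per ml, extracellular vesicles (EVs) shed by the mouse endothelial line MS-1. The EVs had been electroporated with a miR-142-5p mimic (miR-142-5p-EVs), a miR-183-5p mimic (miR-183-5p-EVs), a miR-222-3p mimic (miR-222-3p-EVs) or a control mimic, the worm miRNA cel-miR-67 (ctrl-EVs). All 4 groups thus received endothelial EVs and a synthetic RNA, and cells without EVs were not analysed here. Each group held 3 libraries of polyadenylated RNA, numbered 1 to 3 in the titles.

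Toll-like receptors sense molecules of microbes and of damaged cells. Those of the cell surface recognise lipids and proteins of the bacterial wall, whereas those of the endosome recognise RNA or DNA and depend on Unc93b1 to leave the endoplasmic reticulum. Most signal through the adaptor Myd88 to NF-kappaB and to interferon regulatory factors, and macrophages use them to start inflammatory gene expression.

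The sequences of the miRNAs whose mimics were delivered are shown here. A 3′ UTR that holds the complement of the seed, the bases 2 to 8 in capitals, is a possible direct target. The sequences are the RefSeq mature ones on GRCm38.p6, from chromosomes 11, 6 and X. The study lists its miR-222-3p mimic without the final bases CU and with the same seed.
miR-142-5p: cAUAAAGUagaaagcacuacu
miR-183-5p: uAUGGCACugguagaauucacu
miR-222-3p: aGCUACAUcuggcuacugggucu
No 2 of them share a seed. In the transcript of highest TPM of each of the 10 genes, a seed complement of 7 nt was found in 2 of the 3′ UTRs. These sites are printed 5′ to 3′ on the strand of the transcript (GRCm38), with the seed complement in capitals.
Tlr3, for miR-222-3p: gcttttaagggcATGTAGCaccacacccag
Tlr7, for miR-183-5p: ttctttcttcatGTGCCATgctcagttaaa
The Tlr3 site lies at chr8:45396467-45396473 on the minus strand, at base 440 of the 1035 nt 3′ UTR of Tlr3-205, with an A opposite the first base of the miRNA. The Tlr7 site lies at chrX:167305147-167305153 on the minus strand, at base 183 of the 405 nt 3′ UTR of Tlr7-201, without that A. Among 12544 genes with a 3′ UTR, 9.40% held a site for miR-222-3p, 8.91% for miR-183-5p and 13.9% for miR-142-5p, for which none of the 10 genes had one. A match is a description of the sequence and not a measured site.

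The libraries numbered 2 stood apart from the others in every group. They held 16294611 to 18927524 estimated counts against 18990222 to 22974853 in numbers 1 and 3, and between 5.76% and 6.62% of their counts fell on transcripts annotated as retained introns, against 3.79% to 4.28%. Of the tested genes, 64.1% differed between number 2 and numbers 1 and 3 at an adjusted p under 0.05. What a number marks is not given in the labels. Of 10 macrophage markers, 9 passed the filter on low counts, with Cd68 at 321 to 416 TPM (a share of all transcript molecules, scaled to one sum per library and corrected for length), whereas Mertk stayed under 0.15 TPM. The summed level of the macrophage markers was 814 to 869 TPM in number 2 and 976 to 1088 TPM in numbers 1 and 3. This sum covers opposite moves of the tested markers. In mean TPM, number 2 was higher than numbers 1 and 3 for Cd68 (386 against 339) and Adgre1 (7.33 against 5.53). It was lower for Fcgr1 (11.2 against 63.8), Csf1r (23.8 against 68.8), Spi1 (52.2 against 116) and Aif1 (2.83 against 7.56). Itgam, Lyz2 and Ptprc were lower by less. Of 10 endothelial markers, Cldn5 was at 0 in all libraries and 6 were under 1 TPM in all of them. Their sum was 15.01 to 17.6 TPM in number 2 and 25.4 to 34.2 TPM in numbers 1 and 3, and most of it was Egfl7, at 10.1 to 26.2 TPM. It ranged from 16.6 to 30.4 TPM in ctrl-EVs and from 15.01 to 34.2 TPM in miR-EVs. The part of these differences in the results below was not tested.

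To set out the receptor repertoire, levels were compared between genes in TPM. Unc93b1 was highest, with 79.4, 131 and 181 TPM as the lowest, median and highest of the 12 libraries. Among the receptors Tlr2, which pairs with Tlr1 or Tlr6 to sense bacterial lipopeptides, led with 33.7, 62.6 and 86.0 TPM. It was below Unc93b1 and above every other receptor in all 12 libraries.

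Tlr7, a receptor of uridine-rich RNA, followed with 7.22, 41.8 and 58.9 TPM. Tlr4, the receptor of lipopolysaccharide, had 12.0, 35.7 and 43.0 TPM. These neighbours were not separated, since Tlr7 was above Tlr4 in 8 of 12 libraries, and the 4 others were the libraries numbered 2.

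Tlr1 had 7.47, 23.9 and 26.1 TPM and Tlr6 had 5.59, 12.2 and 17.3 TPM. Tlr1 was below Tlr4 in all 12 libraries and above Tlr6 in 11. The levels of this pair are less certain than the others, because 19.9% of the 31-nt words of Tlr1 and 16.6% of those of Tlr6 occur in other genes, 607 of them in each other, with an identical run of 229 nt between their main transcripts.

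Tlr13, which senses bacterial ribosomal RNA, had 2.81, 6.74 and 16.3 TPM. Tlr3, a receptor of viral RNA duplexes, had 0.781, 3.01 and 6.88 TPM, and Tlr9, the receptor of CpG DNA, had 1.02, 2.62 and 4.62 TPM. Tlr3 and Tlr9 changed places between libraries, with Tlr3 higher in 7 of 12.

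Tlr8, another RNA receptor, had between 0 and 2 estimated counts per library, below the floor of 3 counts, which is 0.131 to 0.184 CPM. It was not detectable at this depth. Outside the 10 genes, the flagellin receptor Tlr5 had 0.0291 to 2.72 TPM, and Tlr11 and Tlr12 were listed at 0 in all libraries.

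**Figure D1:**
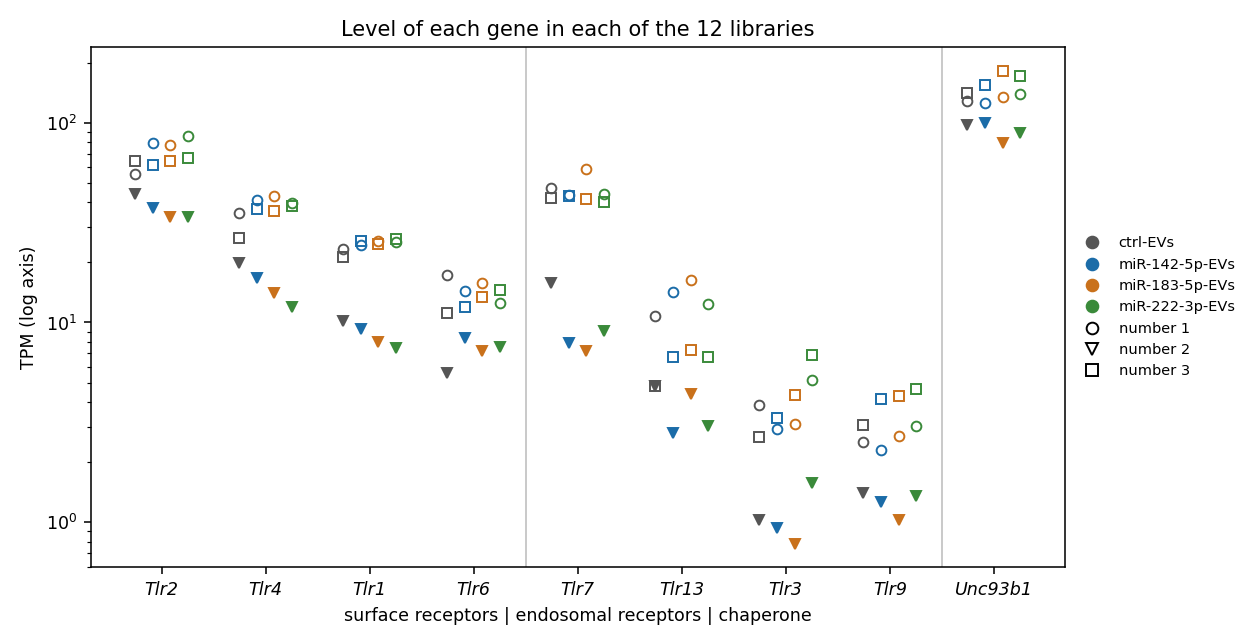
TPM of the 9 detected genes in each of the 12 libraries on a log axis, with colours for the EV groups and symbols for the replicate numbers. The filled triangles, number 2, lie lowest for each gene, at 7.22 to 15.8 TPM for Tlr7 against 40.2 to 58.9 TPM in numbers 1 and 3, and for Tlr13 the highest triangle, at 4.78 TPM, nearly meets the lowest square of number 3, at 4.80 TPM.

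To ask whether a delivered miRNA altered the receptors, the miR-EV groups were set against ctrl-EVs. Of the 9 tested genes, 0 were called in any of the 3 comparisons (DESeq2, adjusted p of 0.9999 or more). For all 9 miR-EV libraries against the 3 ctrl-EV libraries 0 were called either (DESeq2, adjusted p of 0.99985). In these 4 comparisons 0 had an unadjusted p under 0.05. The absence of a call does not show that a receptor stayed unchanged. With edgeR and no replicate block the counts were also 0 and 0. The background was as low, with 0.00718% of all tested genes called in the miR-142-5p-EVs comparison and 0% in each of the other 3. In normalized counts the groups of each member overlapped in the 4 comparisons, whereas of all genes 3.19% had groups apart with miR-183-5p-EVs, 2.69% with either of the other single miRNAs and 0.302% with all miR-EVs. Fitting the replicate number as a block left the count of called members at 0, while Tlr7 had an unadjusted p of 0.0201 for miR-142-5p-EVs, 0.0398 for miR-222-3p-EVs and 0.0131 for all miR-EVs, and Tlr3 one of 0.00204 for miR-222-3p-EVs (DESeq2). No other member had one under 0.05. The block called 0.0575% of all genes for miR-142-5p, 0.417% for miR-183-5p, 0.0359% for miR-222-3p and 1.54% for all miR-EVs.

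The widths of the intervals show what these comparisons could have missed. For all miR-EVs against ctrl-EVs, the log2 fold change of Tlr2 was 0.08 with a 95% interval from −0.43 to 0.59, and that of Tlr4 was 0.12 with an interval from −0.55 to 0.79. The intervals of the tested endosomal receptors were wider than those of the surface receptors. They ran from −1.25 to 0.91 for Tlr7, −0.76 to 1.32 for Tlr3, −0.72 to 1.16 for Tlr13 and −0.62 to 0.93 for Tlr9. With the replicate block the intervals narrowed to −0.21 to 0.24 for Tlr2 and to −0.20 to 0.27 for Tlr4. For Tlr7 the blocked interval, not adjusted for the number of genes, was −0.63 to −0.07, and for Tlr3 −0.29 to 0.75. The remaining surface receptors had log2 fold changes of 0.03 (Tlr1) and 0.02 (Tlr6), and Unc93b1 had 0.04.

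For all miR-EVs, in the fits with the length offset, Tlr7 was the one endosomal receptor of negative log2 fold change, whereas in the single group of miR-142-5p-EVs Tlr3 also had one, of −0.15. The level of Tlr7 in libraries 1, 2 and 3 was 47.1, 15.8 and 42.1 TPM in ctrl-EVs. It was 43.3, 7.89 and 43.2 TPM in miR-142-5p-EVs and 44.1, 9.02 and 40.2 TPM in miR-222-3p-EVs. With miR-183-5p-EVs, the miRNA whose site is printed above, it was 58.9, 7.22 and 41.6 TPM. The libraries numbered 2 are low in every group, and the ranges of all groups overlap.

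In normalized counts Tlr7 was above its equally numbered ctrl-EV library in 1 of 9 miR-EV libraries. For all miR-EVs its log2 fold change was −0.17 ± 0.55 (SE), and −0.35 ± 0.14 with the replicate block, where the adjusted p was 0.166 (DESeq2). With that block, leaving out library 1 of ctrl-EVs gave −0.54 with an adjusted p of 0.0306, whereas leaving out any of the 11 others gave −0.43 to −0.08 with adjusted p from 0.0631 to 0.810. Without the offset for transcript length the blocked value was −0.07. For miR-183-5p-EVs alone the log2 fold change was −0.04 ± 0.73 (SE), with an adjusted p of 0.999995 (DESeq2). With the replicate block it was −0.28 ± 0.18 (SE), with an adjusted p of 0.539 (DESeq2).

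Tlr3, which holds the miR-222-3p site, had 3.87, 1.03 and 2.67 TPM in libraries 1, 2 and 3 of ctrl-EVs and 5.13, 1.57 and 6.88 TPM in those of miR-222-3p-EVs. The TPM was higher with miR-222-3p-EVs at each number, while the groups overlapped. The log2 fold change was 0.78 ± 0.65 (SE), and 0.76 ± 0.25 with the replicate block, with adjusted p of 0.99995 and 0.367 (DESeq2). The estimated counts before correction for length were 139, 49 and 127 in ctrl-EVs and 181, 28 and 141 in miR-222-3p-EVs. The effective length assigned to Tlr3 was 1296 to 2192 nt in miR-222-3p-EVs and 2463 to 3539 nt in ctrl-EVs, and without the length offset the log2 fold change was 0.06. The difference in TPM was thus one of assigned transcript length more than of reads.

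The other endosomal receptors had log2 fold changes for all miR-EVs of 0.22 (Tlr13), 0.15 (Tlr9) and 0.28 (Tlr3). The largest in a single group besides that of Tlr3 was 0.41 ± 0.63 (SE) for Tlr13 with miR-183-5p-EVs, with an adjusted p of 0.999995 (DESeq2). It was 0.13 without the length offset.

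**Figure D2:**
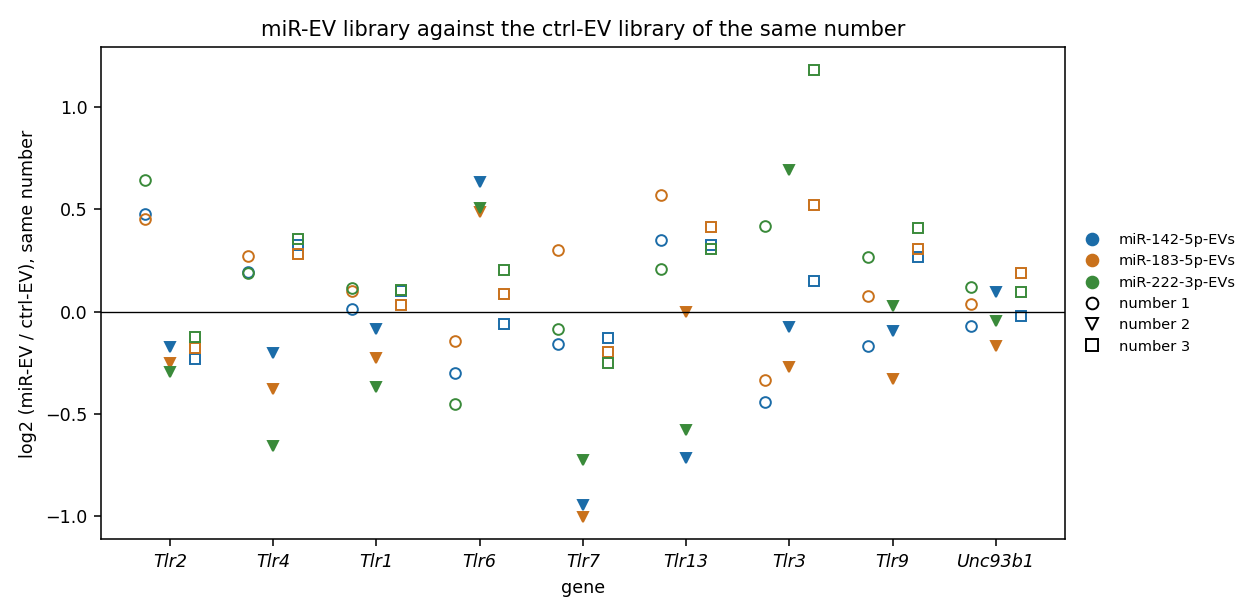
Log2 ratio of normalized counts, each miR-EV library over the equally numbered ctrl-EV library, for the 9 tested genes, with colours for the miR-EV groups and symbols for the numbers. The 3 points of a number share 1 ctrl-EV library as denominator and so are not independent. Those of Tlr2 lie at 0.45 to 0.64 in number 1 and −0.29 to −0.17 in number 2.

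Since the 3 miR-EV libraries of a number share a single ctrl-EV library, the miR-EV difference was set out by number. Tlr2 was higher than the ctrl-EV library in 3 of 3 miR-EV libraries of number 1 and lower in all those of numbers 2 and 3. Tlr4 was higher in all those of numbers 1 and 3 and lower in all those of number 2. A DESeq2 test of whether the miR-EV difference varied with the number, added after the data had been seen, gave adjusted p of 1.81e-05 for Tlr2, 0.00830 for Tlr4 and 0.00900 for Tlr7. It called 3 of the 9 members against 9.24% of all genes. With a single ctrl-EV library at each number, the spread in this test came from the miR-EV libraries alone and each ctrl-EV library was assumed to vary like them, so that a deviation of 1 ctrl-EV library counts as a difference between numbers. This includes a deviation in assigned length, which for Tlr7 in number 2 was 1750 nt with ctrl-EVs and 2025 to 2869 nt with miR-EVs.

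The largest differences in receptor levels were between replicate numbers. In the libraries numbered 2, each of the 9 tested genes was lower than in numbers 1 and 3, from 1.37-fold for Unc93b1 to 4.002-fold for Tlr7 (DESeq2, group and number in the model). All 9 were called lower, against 32.1% of all tested genes, and their median log2 fold change was −1.07 against 0.01 over all tested genes. On the TPM scale all genes had a median log2 difference of −0.22 for number 2. The TPM means below therefore differ by more than the fold changes of the tests. In normalized counts the number 2 libraries lay wholly below the 8 others for 8 of 9, against 21.1% of all genes. The exception was Tlr13, at 249 in library 2 and 239 in library 3 of ctrl-EVs, whose TPM did not overlap, though only by 4.78 against 4.80. Each of the 9 had at least 32.4 normalized counts in every library, so none had passed the filter only where it was high. In bulk RNA, fewer cells with a transcript and less of it per cell cannot be told apart.

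Among the surface receptors, Tlr1 fell by 1.27 on the log2 scale (SE 0.10, adjusted p = 1.24e-34, DESeq2). It had 8.73 ± 1.23 TPM (SD, n = 4) in number 2 and 24.6 ± 1.54 TPM (SD, n = 8) in numbers 1 and 3. Tlr4 fell by 1.02 (SE 0.12, DESeq2 adjusted p = 9.62e-18), from 37.1 ± 5.06 TPM (SD, n = 8) to 15.7 ± 3.44 TPM (SD, n = 4). Tlr6 fell by 0.73 and Tlr2 by 0.67, the latter from 69.3 ± 10.4 TPM (SD, n = 8) to 37.2 ± 4.74 TPM (SD, n = 4).

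Tlr7 had the lowest log2 fold change of the 9, −2.001 (SE 0.14, DESeq2 adjusted p = 3.32e-47). Its mean was 9.97 ± 3.93 TPM (SD, n = 4) in number 2 and 45.1 ± 5.96 TPM (SD, n = 8) in numbers 1 and 3. The estimated counts of Tlr7 were 252 to 372 in number 2 and 1634 to 2792 in the others, and without the length offset it fell by 2.24. Tlr3 fell by 1.66, Tlr9 by 1.14 and Tlr13 by 1.07. Tlr3 had 0.781 to 1.57 TPM in number 2 and 2.67 to 6.88 TPM in numbers 1 and 3. Unc93b1 fell least, by 0.45 (SE 0.08, DESeq2 adjusted p = 1.24e-08), from 147 ± 20.3 TPM (SD, n = 8) to 91.3 ± 9.22 TPM (SD, n = 4). Tlr5, outside the 10 genes, fell by 3.14, and it passed the filter only through numbers 1 and 3, with 1.20 to 10.95 normalized counts in number 2.

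**Figure D3:**
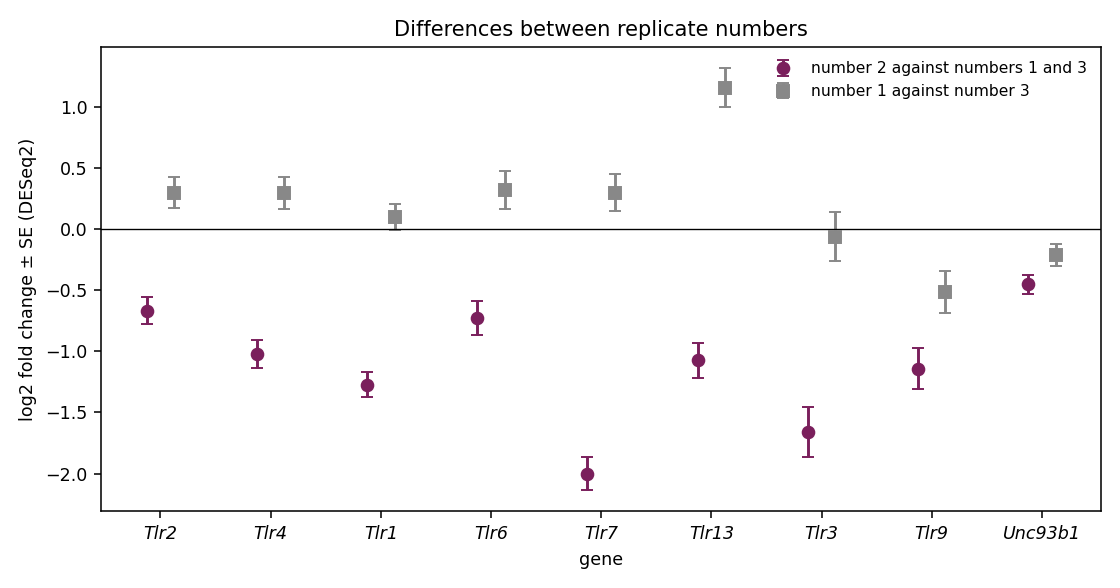
Log2 fold change with its SE for the 9 tested genes between replicate numbers, from DESeq2 with group and number in the model. The circles, number 2 against numbers 1 and 3, all lie below 0, from −0.45 for Unc93b1 to −2.001 for Tlr7, and of the squares, number 1 against number 3, that of Tlr13 lies highest at 1.15.

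The deficit of number 2 was present within each EV group, though its size varied. In normalized counts, the log2 ratio of number 2 to the mean of numbers 1 and 3 was −1.41 for Tlr7 in ctrl-EVs and −2.46 to −1.97 in the miR-EV groups. For Tlr4 it was −0.52 in ctrl-EVs and −1.45 to −0.98 in the miR-EV groups, and for Tlr2 −0.36 and −0.91 to −0.65. Tlr6 went the other way in these values, with −1.22 in ctrl-EVs and −0.70 to −0.41 in the miR-EV groups. Its effective length in number 2 was 3203 nt in ctrl-EVs and 1928 to 2120 nt in the miR-EV groups. The estimated counts of Tlr6 there were 242 and 207 to 231. For Tlr7 these lengths were 1750 nt and 2025 to 2869 nt, with 372 and 252 to 309 counts. The part of assigned length in these contrasts was not tested.

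Numbers 1 and 3 differed less, with 2 of the 9 members called against 23.4% of all genes. Tlr13 was higher in number 1 by 1.15 on the log2 scale (SE 0.16, DESeq2 adjusted p = 1.64e-11). It had 10.8 to 16.3 TPM in number 1, 4.80 to 7.24 TPM in number 3 and 2.81 to 4.78 TPM in number 2. For no other member was this difference as large as that of number 2 from the mean of numbers 1 and 3. In mean normalized counts Tlr13 had 643 in number 1, 287 in number 3 and 204 in number 2, so number 3 lay nearer to number 2.

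Tlr9 was lower in number 1 by 0.52 on the log2 scale (DESeq2 adjusted p = 0.0146), at 2.31 to 3.02 TPM against 3.07 to 4.62 TPM. Its call was lost, with adjusted p of 0.0583 to 0.141, when library 1 or 3 of any miR-EV group was left out. Tlr2, Tlr4, Tlr7 and Unc93b1 had log2 differences of 0.30, 0.30, 0.29 and −0.21 with adjusted p of 0.0694, 0.0847, 0.145 and 0.0590 (DESeq2). Without the length offset each of these 4 was called too, with adjusted p from 0.00148 for Tlr7 to 0.0482 for Tlr4. In normalized counts the groups did not overlap for Tlr4 (higher in number 1) and Unc93b1 (lower in number 1) as well as Tlr13 and Tlr9, where 13.2% of all genes lay wholly higher and 12.0% wholly lower.

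To compare the classes, the summed TPM of the endosomal receptors was divided by that of the surface receptors. The ratio was 0.489, 0.289 and 0.428 in libraries 1, 2 and 3 of ctrl-EVs and 0.394, 0.180 and 0.422 in those of miR-142-5p-EVs. It was 0.501, 0.213 and 0.415 in those of miR-183-5p-EVs and 0.396, 0.247 and 0.401 in those of miR-222-3p-EVs. The 4 libraries numbered 2 lay below the 8 others without overlap, and the EV groups overlapped.

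The mean log2 ratio was −2.13 ± 0.29 (SD, n = 4) in number 2 and −1.22 ± 0.13 (SD, n = 8) in numbers 1 and 3. The ratio followed Tlr7, which made up 9.31% to 15.4% of the summed receptor TPM in number 2 and 19.3% to 24.3% in numbers 1 and 3. Without Tlr7 the ratio was 0.0702 to 0.0982 and 0.0859 to 0.137, which overlap. When each receptor had the same weight, as the mean of log2(TPM + 0.1) per class, the difference between number 2 and the others shrank from −0.91 to −0.22. Tlr2, in turn, made up 42.7% to 44.6% of the receptor TPM in number 2 and 28.4% to 37.7% in the others. No test was made of the ratio.

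**Figure D4:**
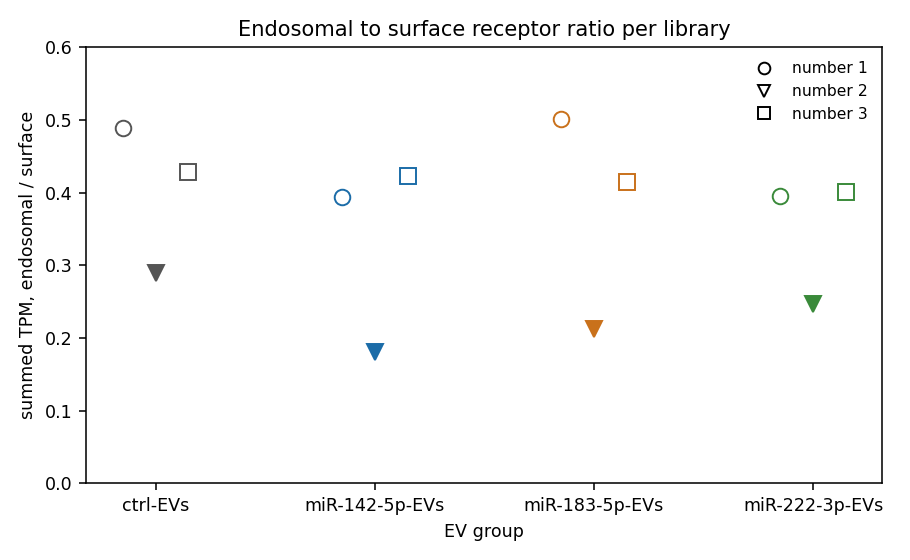
Summed TPM of Tlr3, Tlr7, Tlr8, Tlr9 and Tlr13 divided by that of Tlr1, Tlr2, Tlr4 and Tlr6 in each library, by EV group, with symbols for the replicate numbers. The filled triangles, number 2, lie at 0.180 to 0.289 and all other libraries at 0.394 to 0.501.

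The counts of each gene were also split by transcript. Tlr2 and Tlr9 have a single listed transcript, and Tlr4-201, Tlr6-201 and Tlr13-201 held at least 95.3%, 91.6% and 96.2% of the counts of their gene in every library. Tlr7-201, the transcript in which the printed site was found, held 70.6% to 93.3% of the Tlr7 counts in number 2 and 62.6% to 77.2% in numbers 1 and 3. In Tlr1 the share of Tlr1-201 was 63.7% to 89.8% in number 2 and 42.1% to 68.1% in the others. The split of Tlr3 was unsteady, with Tlr3-205, the transcript in which the printed site was found, at 1.01% to 98.5% of its 28 to 181 counts. The other transcripts of Tlr7 and Tlr3 were not searched, so these shares do not show how many transcripts hold a site. Unc93b1-201, annotated as a retained intron, held 5.28% to 10.3% of the Unc93b1 counts in number 2 and 3.20% to 4.79% in numbers 1 and 3. Unc93b1-202 and Unc93b1-207, annotated likewise, overlapped between these sets. The former held 3.33% to 4.28% in number 2 against 2.58% to 5.19%, and the latter 0.264% to 0.674% against 0.575% to 1.09%. How many transcripts of all genes differ in this way was not counted.

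Since the members fell together in number 2, their promoters were searched for 4 motifs on both strands. RefSeq promoters, from 250 bases before to 50 after a start, were held for 7 of the 10 genes. Tlr4, Tlr7 and Unc93b1 had none and were not searched, while Tlr8, which was not detectable, was among the 7. The motifs were the PU.1 site, the interferon response element ISRE, the AP-1 site and the kappaB site, of which none contains another. The matches are printed on the strand that holds the motif, with the motif in capitals. The matches of Tlr6 overlap and are shown one by one, and the AP-1 match of Tlr9, which reads on both strands, is shown on the strand of the gene.
Tlr1, PU.1: ttaaatgttgGAGGAAGTaggagcttga
Tlr9, PU.1: tcagagaattGAGGAAGTgacactttca
Tlr9, AP-1: aaatgatgtgTGACTCAttgtaccacc
Tlr6, ISRE: acatcaaacaGAAAGTGAAAgagaaaagaa
Tlr6, ISRE: aacagaaagtGAAAGAGAAAagaatagtca
Tlr3, kappaB: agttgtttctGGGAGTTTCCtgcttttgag
They come from the GRCm38.p6 windows chr5:64933509-64933808 (Tlr1, minus strand), chr9:106222348-106222647 (Tlr9, plus strand), chr5:64959117-64959416 (Tlr6, minus strand) and chr8:45410331-45410630 (Tlr3, minus strand). Of 32851 promoters 3.20% held the PU.1 motif, 3.44% the ISRE, 7.81% the AP-1 motif and 1.63% the kappaB motif. No single motif was common to the 7 genes searched, and nothing can be said of Tlr4, Tlr7 and Unc93b1. The other windows do not hold these letters, which says nothing of the factors.

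To place the receptors in their pathway, 55 partner genes in 7 lists were examined, of which 54 were tested, while Ifi30 was not analysed here. In the EV comparisons 0 of them were called, with or without the replicate block. In number 2, 24 were lower and 17 higher at an adjusted p under 0.05, with a median log2 fold change of −0.07, against 32.1% lower and 32.0% higher over all genes. The partners thus did not move as a block, unlike the 9 members. The lists were chosen with earlier results of these data known, and on the TPM scale all genes had a median log2 difference of −0.22 for number 2, so that a small rise in the tests can be none in TPM. Of the called partners this turned the direction for Irak2 alone.

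Of 6 surface co-receptors and ligand carriers, 3 were lower and 1 higher in number 2. Cd14, which hands lipopolysaccharide to Tlr4, had 37.8 ± 8.38 TPM (SD, n = 4) in number 2 and 123 ± 17.6 TPM (SD, n = 8) in the others, a log2 fold change of −1.48. Cd180, a relative of Tlr4 without a signalling domain, fell by 1.16, and its partner Ly86 rose by 0.39. Of 5 adaptors, 2 were lower and 0 higher. Myd88, the adaptor of nearly all the receptors, fell by 1.58 (SE 0.09, DESeq2 adjusted p = 4.14e-65), from 55.2 ± 2.71 TPM (SD, n = 8) to 16.0 ± 2.97 TPM (SD, n = 4). Ticam2, the bridging adaptor of Tlr4, fell by 1.16, whereas Ticam1, the adaptor of Tlr3, had 0.13 with an adjusted p of 0.327 (DESeq2).

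Of 11 kinases and ubiquitin ligases, 5 were lower and 3 higher. Irak4, the kinase that Myd88 recruits, fell by 0.64 and Ikbke by 0.70, while Traf3, a ligase of the interferon branch, rose by 0.61. Irak2, the most abundant of the list, had a log2 fold change of 0.22 with 91.8 ± 7.45 TPM (SD, n = 4) and 92.9 ± 14.0 TPM (SD, n = 8). Of 7 transcription factors, 5 were lower and 1 higher, with a median of −0.59. Irf7, which drives type I interferon downstream of Tlr7 and Tlr9, fell by 1.80, from 40.8 ± 7.13 TPM (SD, n = 8) to 10.1 ± 3.24 TPM (SD, n = 4). Nfkb1 fell by 0.89 and Fos by 1.03, and Irf5, the most abundant, had −0.18 with an adjusted p of 0.0794 (DESeq2).

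The folding and trafficking list moved in both directions, with 5 of 8 higher and 3 lower, and a median of 0.57. Hsp90b1, the endoplasmic reticulum chaperone (gp96) that most Toll-like receptors need to fold, had 1612 ± 226 TPM (SD, n = 4) in number 2 and 436 ± 71.8 TPM (SD, n = 8) in the others. Its log2 fold change was 2.12 (SE 0.09, DESeq2 adjusted p = 3.17e-112). Cnpy3, its co-chaperone for the receptors, rose by 1.04, from 50.3 ± 4.68 TPM (SD, n = 8) to 88.2 ± 8.55 TPM (SD, n = 4). Ap3b1, a subunit of the AP-3 adaptor that sorts endosomal receptors, fell by 0.87. Cnpy4, a relative of Cnpy3 named here after its values had been seen, fell by 0.75, from 14.9 to 7.68 TPM, so the chaperones of the list did not move one way.

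Of 11 genes of endolysosomal processing 10 were tested, and 4 were higher and 3 lower. The proteases Lgmn and Ctss, which cut endosomal receptors or their ligands, rose by 0.61 and 0.42. The nuclease Dnase2a fell by 0.34. Ctsb, the most abundant, had 0.25, with 686 ± 50.8 TPM (SD, n = 4) and 679 ± 79.2 TPM (SD, n = 8). Of 7 negative regulators, 3 were lower and 3 higher. Irak3, an inhibitory kinase relative, fell by 1.22, Sigirr, a decoy-like receptor, by 0.58, and the ubiquitin ligase Rnf216 by 0.50.

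**Figure D5:**
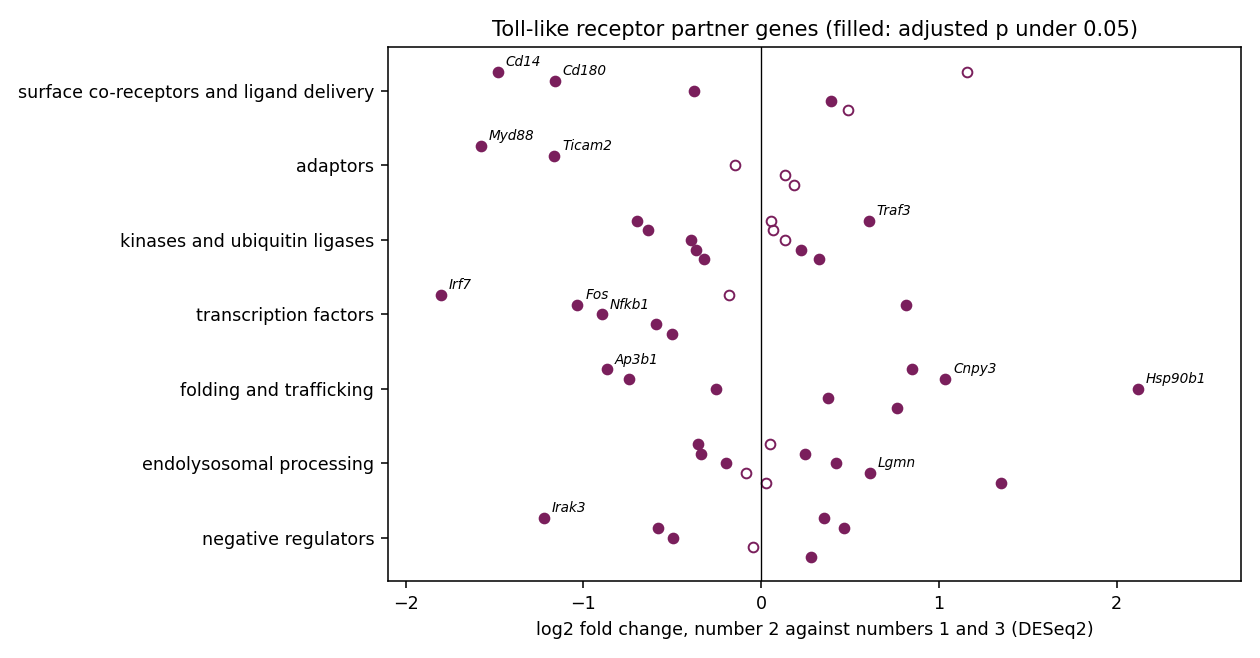
Log2 fold change of the 54 tested partner genes between number 2 and numbers 1 and 3, by list, from DESeq2, with filled points for genes of adjusted p under 0.05. Hsp90b1 lies farthest to the right at 2.12, and Irf7, Myd88 and Cd14 farthest to the left at −1.80, −1.58 and −1.48.

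Finally, the genes with the most similar profile over the 12 libraries were sought among 10867 others whose mean reached 50 normalized counts, by Pearson's r of log2(normalized count + 1). As the 12 libraries form clusters by number, r was also computed within the 8 of numbers 1 and 3, and both are given as a description of profiles that share library and depth. Tlr13 was closest to Ttc9c (0.98 over 12 and 0.99 over 8), Tlr2 to Parp10 (0.98 and 0.96), Tlr4 to Parp12 (0.98 and 0.91) and Unc93b1 to Zfp523 (0.99 and 0.94). Tlr9 was closest to Birc3 (0.98 and 0.90), followed by Ctse (0.98 and 0.93), which was also second for Unc93b1 (0.97 and 0.86). For Tlr7 the closest were Gm4631 (0.99 and 0.76) and Heatr3 (0.99 and 0.84). For Tlr1 the likeness to Txndc9 and Syk lay in the gap between clusters, as r was 0.99 for both over 12 libraries and 0.37 and 0.47 over 8. The highest values were 0.95 for Tlr3, with Enthd1 (0.64 over 8), and 0.94 for Tlr6, with Pnp (0.78 over 8).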

How the data were processed

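Libraries had been made with a stranded kit for polyadenylated RNA and sequenced as read pairs. The authors used Salmon with the mouse transcripts of Ensembl and deposited, for each transcript, an estimated count, which is not normalized, and a TPM. A human build named in the processing notes does not match the mouse identifiers. Transcripts were matched to GENCODE vM21 (GRCm38; 116710 of 118783), and counts and TPM were summed by gene. Counts were rounded, and genes reaching 10 counts in 3 or more libraries were tested with DESeq2 1.42.0 (R 4.3.3; Wald or likelihood ratio test, two-sided, Benjamini-Hochberg adjusted p under 0.05) with a length offset. The study's methods name DESeq2 and no model formula. EV groups were compared without a block, and numbers in a model of group and number. The alternatives were edgeR 4.0.16 (quasi-likelihood test), no filter, no offset, a replicate block, only the groups compared, no group term and each library left out in turn.

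The replicate numbers pair the libraries: in all 18 pairs of equal number, deviations from the group means correlated (r from 0.41 to 0.80, mean 0.61). No 2 replicates agreed within sampling noise (chi-square over its degrees of freedom 27.3 to 184). The labels do not say whether replicates were separate cultures, so p-values measure the spread between these libraries. Totals were 16294611 to 22974853 estimated counts, and floors of 3 counts cover counting error only. Members and lists were chosen with earlier results of these data known. Named are all members, Tlr5, Tlr11 and Tlr12, from each partner list the gene of highest TPM and up to 3 of lowest adjusted p among numbers, any partner called in an EV comparison, and for each member of at least 100 normalized counts its 2 most similar genes. The scripts were tested on simulated data.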

Additional observations from a re-analysis of the deposited data

Results flagged for a closer look

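Dixon's test at the 95% level singled out no library in 40 sets of values, each set being the 4 libraries of 1 number or the 9 miR-EV libraries. The EV groups of 3 libraries were not tested, and in a set of 9 the 3 libraries numbered 2 can mask one another. The values below are differences of miR-EV libraries from the ctrl-EV library of their number, by number. Each number holds a single ctrl-EV library, shared by its 3 miR-EV libraries, so what is particular to that library and what is particular to the number cannot be told apart. The spread in the interaction test came from the miR-EV libraries alone, and each ctrl-EV library was assumed to vary like them.

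For Tlr2 the mean log2 difference of number 1 exceeded that of number 2 by 0.76 and that of number 3 by 0.70, and the DESeq2 interaction test gave an adjusted p of 1.81e-05. For Tlr4 number 1 exceeded number 2 by 0.63, number 2 minus number 3 was −0.73, and the adjusted p was 0.00830. For Tlr7 the adjusted p was 0.00900, with means of 0.02, −0.89 and −0.19 in numbers 1, 2 and 3. The effective length of Tlr7 in number 2 was 1750 nt in the ctrl-EV library and 2025 to 2869 nt in the miR-EV libraries. Its estimated counts there, before correction for length, were 372 and 252 to 309. The interaction test was not run without the length offset.

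For Tlr1, Tlr6 and Tlr13 all libraries of 1 number went the opposite way to all those of another, but the interaction test did not pass (adjusted p of 0.563, 0.0639 and 0.129). The difference of number 1 minus number 2 was 0.30 for Tlr1, −0.84 for Tlr6 and 0.81 for Tlr13. That of number 2 minus number 3 was −0.31 for Tlr1 and −0.78 for Tlr13. The effective length of Tlr6 in number 2 was 3203 nt in the ctrl-EV library and 1928 to 2120 nt in the miR-EV libraries. Its estimated counts there, before correction for length, were 242 and 207 to 231. The part of assigned length in the Tlr6 difference was not tested. The levels of Tlr1 and Tlr6 are also less certain than the others, as set out above.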

How the results depend on the processing

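The 9 members stayed lower and called in number 2 under each of the 144 alternatives run, 16 for each member, with adjusted p of at most 2.50e-04. In the EV comparisons 0 members were called under any alternative except 1, Tlr7 for all miR-EVs with the replicate block and without library 1 of ctrl-EVs. The replicate block changed no other call of a member. Tool, offset and block moved the counts of all genes, and the cause was not tested.

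With the replicate block, miR-142-5p-EVs had 8 called genes where they had 1 without it, miR-183-5p-EVs 58, miR-222-3p-EVs 5 and all miR-EVs 214, where each had 0, and 12 genes in place of 1 differed among the groups. With the block and no length offset there were 4, 32, 6, 153 and 4. With edgeR, with or without the block, miR-142-5p-EVs and any difference among the groups gave 0, as did fitting only the 2 groups for miR-142-5p-EVs. Leaving out a library gave 0 to 1 genes with miR-142-5p-EVs, 0 to 1 with miR-183-5p-EVs, 0 to 2 for any difference and 0 to 480 for all miR-EVs, the blocked fits included, in which 0 to 1 members were called. The fits with the block and no offset, those with the block and a library left out, and the ratio without Tlr7 were chosen after seeing the data.

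Between numbers 1 and 3, 2 members were called, 6 without the length offset, 4 without the group term and 1 to 5 with a library left out, where 1898 to 3763 of all genes were called against 3262.

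Some uncalled log2 fold changes changed sign. For all miR-EVs, edgeR with the block gave −0.020 for Tlr1, and no length offset gave −0.017 for Tlr3 and −0.021 for Unc93b1. With the block and no offset the values were −0.0078 for Tlr1, −0.090 for Tlr3, −0.029 for Tlr13 and −0.023 for Unc93b1. In the single groups that setting gave −0.047 for Tlr3 with miR-222-3p-EVs, and −0.013 for Tlr13 and 0.035 for Tlr7 with miR-183-5p-EVs, the last being 0.12 with no offset alone. No offset gave −0.088 for Tlr1 and 0.12 for Tlr3 between numbers 1 and 3. With a library left out, all miR-EVs ranged from −0.25 to 0.22 for Tlr1, −0.031 to 0.21 for Tlr2, −0.084 to 0.69 for Tlr3, −0.037 to 0.32 for Tlr4, −0.29 to 0.42 for Tlr6, −0.51 to 0.077 for Tlr7, −0.089 to 0.40 for Tlr9 and −0.080 to 0.15 for Unc93b1. With miR-183-5p-EVs, Tlr13 ranged from −0.25 to 0.88 and Tlr7 from −0.63 to 0.42, and Tlr3 between numbers 1 and 3 ranged from −0.22 to 0.053.

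The log2 ratio of endosomal to surface TPM, number 2 minus the others, was −0.91. It was −1.06 without Tlr13, −0.41 without Tlr7, −0.22 as a mean of logs per class and −1.02 to −0.79 with a library left out. Number 1 minus number 3 was 0.085, and its sign turned without Tlr13, at −0.059, and as a mean of logs, at −0.14. It was 0.27 without Tlr7 and 0.025 to 0.14 with a library left out. Tlr8, with at most 2 counts per library, is limited by depth.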
